A study of Saccharomyces cerevisiae with 12 samples.

Results

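Messenger RNA was compared between diploid budding yeast (Saccharomyces cerevisiae) lacking ATG1 and the wild type, both starved of zinc. The comparison used the gene counts of 8 of the 12 libraries of the series, 4 from the deletion strain (atg1) and 4 from the wild type (WT), and every gene with enough counts: 6157 of 6660 features. Both strains carry the label BY4743, a diploid laboratory background in common use. All 8 libraries came from liquid cultures that were grown with ample zinc at 30 °C, washed, and held with limiting zinc for 8 h. The atg1 genotype is a deletion of ATG1, and no further allele or agent is labelled in either strain. The other 4 libraries of the series came from a strain lacking ATG41 (atg41), also after 8 h of zinc deficiency at 30 °C. They are used only where atg41 or all 12 libraries are named. RNA was prepared in quadruplicate, but the labels give neither the number of deletion clones nor whether each library had a culture of its own, so every p-value below rests on the spread between libraries, and that spread may be technical in part. RNA came from whole cultures, so a change in the share of cells that express a gene and a change per cell cannot be told apart.

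Atg1 is a protein kinase that starts autophagy, in which a double membrane encloses cytoplasm and carries it to the vacuole, the yeast organelle that degrades proteins and stores phosphate, amino acids and metals. With Atg13, Atg17, Atg29 and Atg31 it forms the complex that assembles the autophagosome when nutrients run short, and cells without it cannot carry out bulk autophagy. In zinc-starved yeast the activator Zap1 turns on genes for zinc uptake and for a lower need of zinc, and autophagy is known to help such cells grow.

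The 8 libraries held 9658658 to 11247182 expected counts each. ATG1 had 0 counts in each of the 4 atg1 libraries, against 988, 1181, 1090 and 1186 counts in the 4 WT libraries. WT libraries held ATG1 at 94.9, 111, 107 and 103 CPM, where CPM is the count scaled to library size with TMM (trimmed mean of M values) factors. With a floor of 3 counts per library in place of 0, ATG1 was at least 345-fold lower in atg1 (edgeR quasi-likelihood adjusted p = 3.93e-07), a bound that covers counting error only. LEU2 and URA3, which are deleted in this background, had 0 CPM in all 8 libraries. HIS3 was at 101 to 119 CPM in atg1 and 88.9 to 110 CPM in WT, and the his3 allele of this background is a partial deletion. Among genes specific to haploid cells or to a mating type, the levels were mixed: MFA1, MFA2, AGA2 and MATALPHA1 were under 1 CPM in all 8 libraries, but AXL1 was at 67.2 to 72.3 CPM in atg1 and 67.3 to 75.4 CPM in WT, STE6 at 45.9 to 62.8 and 60.8 to 66.6 CPM, and SAG1 at 75.7 to 86.4 and 72.8 to 80.2 CPM. One library stood apart: in pairs within a strain, the chi-square of counts per gene was 33.1 to 55.5 for the 3 pairs with atg1 replicate 1, and 4.24 to 8.32 for the other 9 pairs. On the first principal component (33.2% of the variance) the atg1 libraries lay at -14.1, -12.2, -0.07 and -12.9 and the WT libraries at 4.37, 10.3, 16.6 and 8.03. On the second component (22.9%) atg1 replicate 1 lay at 20.6 and the other 7 libraries between -12.9 and 2.97.

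Few genes other than ATG1 changed by a large amount. Of the 6157 genes, 69 passed an adjusted p of 0.05 in edgeR's quasi-likelihood test, which is 1.12% of those tested. Of these, 11 genes (0.179% of all tested) rose and 58 (0.942%) fell, ATG1 among them. With libraries scaled to equal totals, which set the median of all genes at -0.09, the split was 8 and 261. In 8 of the 69 the change was at least 1 unit on the log2 scale. The 4 atg1 libraries lay wholly above or wholly below the 4 WT libraries in each of the 69 called genes. Over all genes the same non-overlap was seen for 335 genes with atg1 above (5.44%) and 521 with atg1 below (8.46%). Of the 11 rises, 7 were genes of phosphate uptake or polyphosphate, and the 3 largest falls after ATG1 were neighbours at 1 chromosome end. The count of calls depended on single libraries. It was 325 without atg1 replicate 1 (5.26% of the genes tested in that fit), 9 without replicate 2, 290 without replicate 3 and 24 without replicate 4, and it was 9, 7, 10 and 8 without WT replicates 1, 2, 3 and 4. Under all 21 alternatives tried, 7 called genes kept the call: ATG1, ADH7, AAD3, RDS1, COS8, PHO84 and PHO11.

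**Figure D1:**
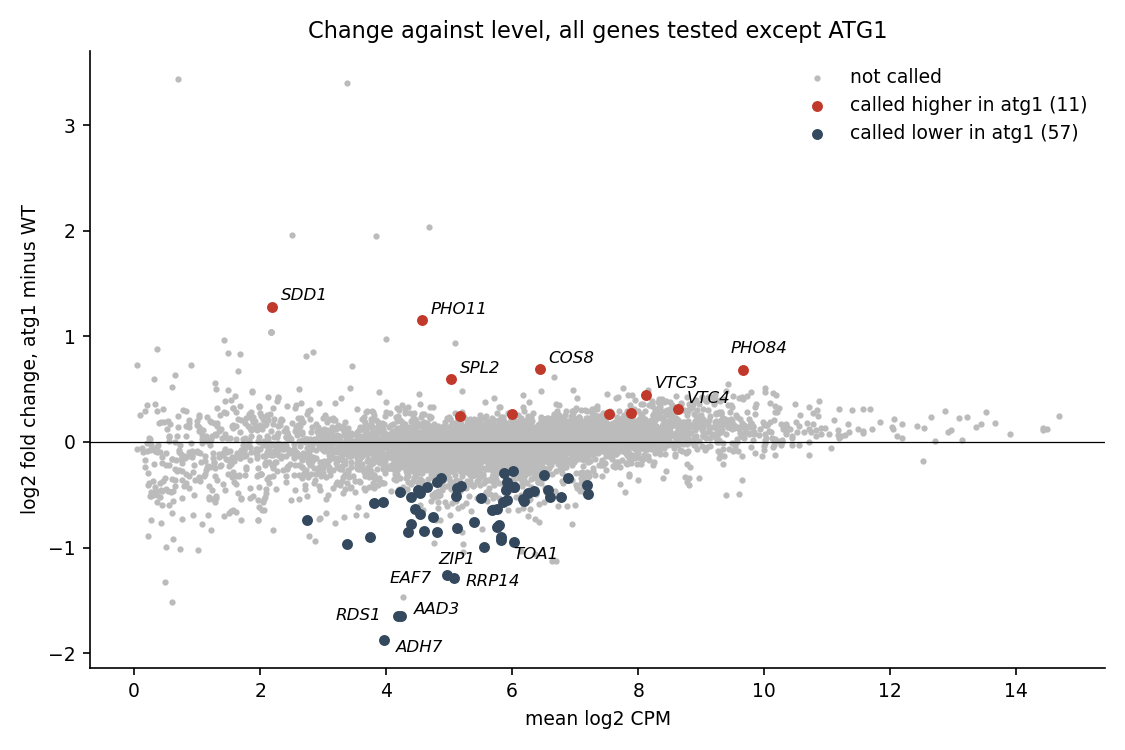
Log2 fold change (atg1 minus WT) against mean log2 CPM for every gene tested except ATG1; each point is 1 gene, with called rises in red, called falls in dark blue and the rest in grey. PHO11, COS8 and PHO84 lie above the band of unchanged genes, and ADH7, RDS1 and AAD3 lie lowest; the 5 grey points above SDD1 are genes in which the strains overlapped.

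The largest falls after ATG1 were ADH7, RDS1 and AAD3, 3 adjacent genes on the forward strand near the right telomere of chromosome III. ADH7 encodes an alcohol dehydrogenase that uses NADPH, RDS1 a putative transcription factor with a zinc cluster, and AAD3 a putative aryl-alcohol dehydrogenase. Per length, in the authors' TPM (transcripts scaled for gene length and depth), ADH7 had a median of 5.53 in atg1 and 21.3 in WT, RDS1 2.95 and 9.98, and AAD3 7.28 and 25.0. Each of the 3 was about as low in atg1 replicate 1 as in the other atg1 libraries.

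ADH7 (YCR105W, chrIII:309070-310155 in assembly R64, 6.47 kb from the end) had 6.48, 6.61, 6.57 and 6.48 CPM in the atg1 libraries, against 24.5, 24.2, 22.8 and 24.5 CPM in the WT libraries. The SD of the 4 atg1 values was 0.0637 CPM, where 3 counts in an atg1 library are 0.278 to 0.324 CPM. Agreement this close is below counting error and is not a measure of precision. The SE and adjusted p of ADH7 rest in part on this spread and may be too small. No atg1 library came near a WT library. The log2 fold change of ADH7 was -1.87 ± 0.08 (SE, n = 4 libraries a strain for this and every fold change given here; edgeR adjusted p = 8.03e-07). RDS1 (YCR106W, chrIII:310958-313456, 3.16 kb from the end) had 9.51, 7.64, 9.13 and 8.52 CPM in atg1 and 26.8, 28.6, 28.0 and 25.6 CPM in WT. The log2 fold change of RDS1 was -1.65 ± 0.09 (edgeR adjusted p = 5.87e-06), and the highest atg1 library was far below the lowest WT library. AAD3 (YCR107W, chrIII:313890-314981, 1.64 kb from the end) had 9.51, 8.26, 8.63 and 9.54 CPM in atg1 and 27.0, 29.5, 28.0 and 28.2 CPM in WT. Its log2 fold change was -1.65 ± 0.08 (edgeR adjusted p = 2.66e-06), again with no overlap.

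The fall stopped sharply along the chromosome. ADH7, RDS1 and AAD3 are the 3 tested genes nearest to that end. The next tested genes inward, YCR102C at 11.2 kb and YCR101C at 13.6 kb, had log2 fold changes of -0.09 ± 0.11 and -0.36 ± 0.14 and were not called. PAU3, which lies between YCR102C and ADH7, had 66 counts over the 8 libraries, and YCR108C, nearest to the end, had 0, so neither was tested. HMRA1 and HMRA2, genes of the silent mating locus 22.3 and 23.1 kb from the end, had log2 fold changes of -0.37 ± 0.11 and 0.84 ± 0.75. Neither was called, and whether their reads came from this locus alone was not tested. The other 5 tested members of the aryl-alcohol dehydrogenase family, which sit elsewhere, ranged from -0.21 (YPL088W) to 0.08 (AAD4) with none called. Over all chromosome ends, the 190 tested genes within 20 kb of one had a median log2 fold change of -0.02, with 3 called higher and 4 lower. These 7 were COS8, PHO11 and YDR541C on the higher side, and the 3 genes of chromosome III with YFL067W on the lower. Of the 5524 tested genes further from an end, 8 were called higher and 54 lower. Over all genes tested the shares were 0.179% higher and 0.942% lower. In the 4 atg41 libraries of the series ADH7 was at 27.5 to 31.4 CPM, RDS1 at 38.6 to 45.2 CPM and AAD3 at 31.4 to 36.0 CPM, all above the atg1 libraries. The atg41 values were scaled with all 12 libraries together, and the atg1 and WT values with the 8 libraries of those strains.

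**Figure D2:**
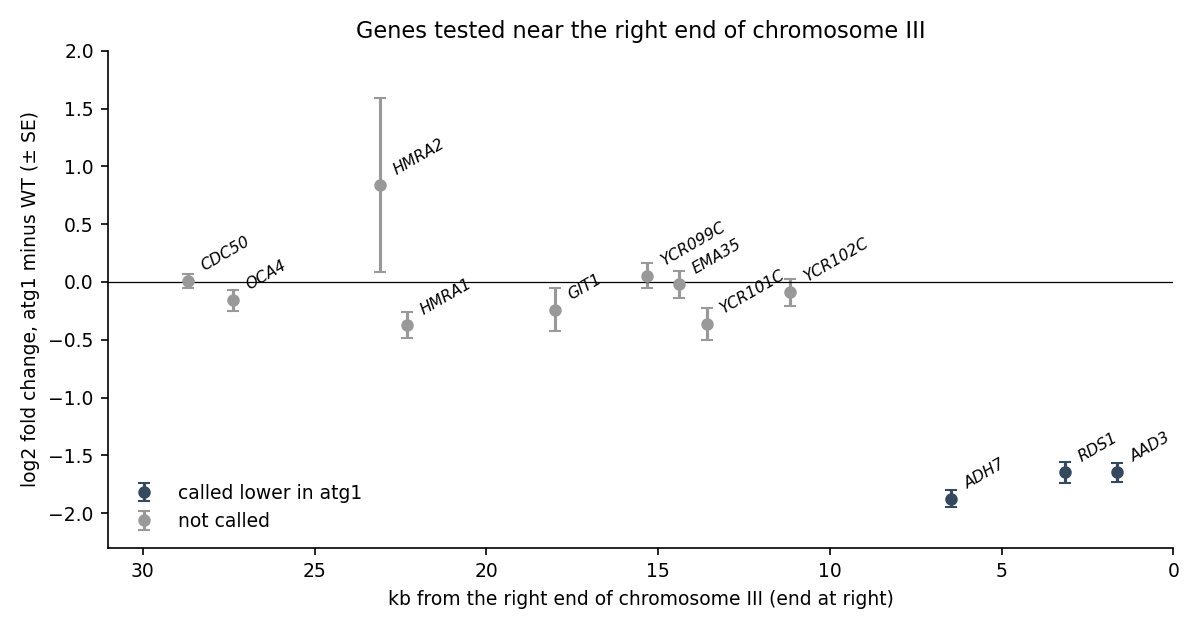
Log2 fold change (atg1 minus WT, ± SE) of the genes tested within 30 kb of the right end of chromosome III, against distance from that end in kb, with the end at the right. ADH7, RDS1 and AAD3 lie between -1.87 and -1.65, and the other 9 genes have no call.

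Phosphate genes made up most of the rises. Of 13 genes for phosphate transport and phosphatases, 4 were called higher and none lower, with a median log2 fold change of 0.26 against -0.0009 for all genes. These genes are poor in A (median 28.9% of the coding strand, against 32.7% for all genes), and with the libraries' trend on base composition and length removed, as described further on, 3 of the 13 were called higher and the median was 0.16. Polyphosphate is the phosphate polymer stored in the vacuole. Of 12 genes on a list for its synthesis and breakdown, which also holds PHM6, PHM7 and PHM8, 3 were called higher and none lower. The median of the 12 was 0.03, and 1 was called after that removal. None of the 10 genes listed for phosphate signalling was called, and their median was 0.04. That list holds PHO86 and SND3 beside regulators such as PHO4 and PHO85. For comparison, 0.179% of all genes tested were called higher. When phosphate is short, the transcription factor Pho4 enters the nucleus and turns on most of the genes in the first 2 groups, and the kinase pair Pho80 and Pho85 otherwise keeps it out.

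Among transporters, PHO84 (YML123C), the high-affinity phosphate importer of the plasma membrane, had 1075, 1003, 947 and 969 CPM in atg1 and 640, 625, 620 and 604 CPM in WT. The log2 fold change of PHO84 was 0.68 ± 0.06 (edgeR adjusted p = 7.17e-04), and the lowest atg1 library was well above the highest WT library. PHO89, a phosphate importer driven by sodium, behaved differently in 1 library: it had 167, 299, 319 and 335 CPM in atg1 and 212, 208, 212 and 218 CPM in WT. Replicate 1 of atg1 was therefore the lowest of all 8 libraries and the other 3 the highest. The log2 fold change of PHO89 was 0.40 ± 0.19 with no call (edgeR adjusted p = 0.275), and without atg1 replicate 1 it was 0.58 with a call (edgeR adjusted p = 1.66e-05). SPL2, a small protein that limits low-affinity phosphate uptake, had 40.0, 40.6, 37.7 and 38.5 CPM in atg1 and 28.1, 23.3, 28.7 and 23.6 CPM in WT. In log2 terms SPL2 rose by 0.60 ± 0.08 (edgeR adjusted p = 0.0114), and no library of one strain reached the range of the other. The low-affinity carriers PHO87, PHO90 and PHO91 had log2 fold changes of 0.21 ± 0.05, 0.20 ± 0.10 and 0.22 ± 0.10, and none was called.

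Among phosphatases, PHO11 (YAR071W), a secreted acid phosphatase, had 30.4, 32.5, 29.5 and 37.8 CPM in atg1 and 16.4, 16.0, 11.4 and 14.5 CPM in WT. The rise of PHO11 was 1.16 ± 0.12 in log2 (edgeR adjusted p = 0.00222), with no overlap between the strains. The coding sequence of its copy PHO12 is 99.72% identical, differing at 4 of 1404 bases, so reads can be split between them by the authors' counting and the value of either gene is uncertain. PHO12 had 78.2, 81.7, 87.8 and 72.5 CPM in atg1 and 66.9, 64.5, 65.3 and 64.6 CPM in WT, which is 0.29 ± 0.06 in log2 with no call (edgeR adjusted p = 0.0537). PHO8, the alkaline phosphatase of the vacuole, had 192, 210, 204 and 203 CPM in atg1 and 177, 167, 162 and 169 CPM in WT, and it rose by 0.26 ± 0.05 (edgeR adjusted p = 0.0423). PHO5, the main secreted acid phosphatase, had a log2 fold change of 0.27 ± 0.07 and was not called. GDE1, which breaks down glycerophosphocholine, and GIT1, which imports glycerophosphoinositol, were at -0.20 ± 0.07 and -0.24 ± 0.19, neither called.

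The vacuolar transporter chaperone, or VTC complex, makes polyphosphate, and 3 of its 5 subunits rose. VTC3 had 340, 328, 310 and 311 CPM in atg1 and 234, 238, 241 and 232 CPM in WT, a rise of 0.45 ± 0.05 (edgeR adjusted p = 0.00494). VTC4, the catalytic subunit, had 443, 451, 430 and 433 CPM in atg1 and 353, 358, 352 and 351 CPM in WT, a rise of 0.31 ± 0.05 (edgeR adjusted p = 0.033). VTC1 had 274, 254, 255 and 251 CPM in atg1 and 214, 206, 209 and 222 CPM in WT, a rise of 0.28 ± 0.05 (edgeR adjusted p = 0.0401). All 4 atg1 libraries were above all 4 WT libraries for each of these subunits, atg1 replicate 1 included. VTC2 and VTC5 were at 0.05 ± 0.05 and -0.03 ± 0.05 without a call. The polyphosphatases PPN1, PPN2 and PPX1 were at -0.11, 0.02 and -0.06, also uncalled. Among regulators, the cyclin-dependent kinase gene PHO85 was at 0.23 ± 0.06 (edgeR adjusted p = 0.073), PHO4 at 0.04 ± 0.07, PHO81 at 0.06 ± 0.05 and PHO80 at -0.05 ± 0.07, none of them called.

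In TPM, which allows genes to be compared, VTC1 and PHO84 were the highest of the 7 called phosphate genes in both strains and PHO11 the lowest. Median TPM was 724 in atg1 and 637 in WT for VTC1, 490 and 329 for PHO84, 178 and 150 for VTC4, and 110 and 85.4 for VTC3. It was 108 in atg1 and 91.9 in WT for PHO8, 93.5 and 63.9 for SPL2, and 20.1 and 10.1 for PHO11. VTC3 and PHO8 lay close together and stood in opposite order in the strains.

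The calls on PHO84 and PHO11 held in each of the 8 fits that left out 1 library. VTC3 lost its call without WT replicate 2 or 4 (adjusted p = 0.053 in both), and SPL2 without atg1 replicate 2 or WT replicates 2 or 4. VTC4, VTC1 and PHO8 kept theirs in the fits without atg1 replicate 1 and without atg1 replicate 3 and lost it in the other 6. Without atg1 replicate 1, 8 of the 13 uptake genes and phosphatases were called higher, the 4 above with PHO89, PHO12, PHO5 and PHO87, against 0.696% of all genes tested in that fit.

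**Figure D3:**
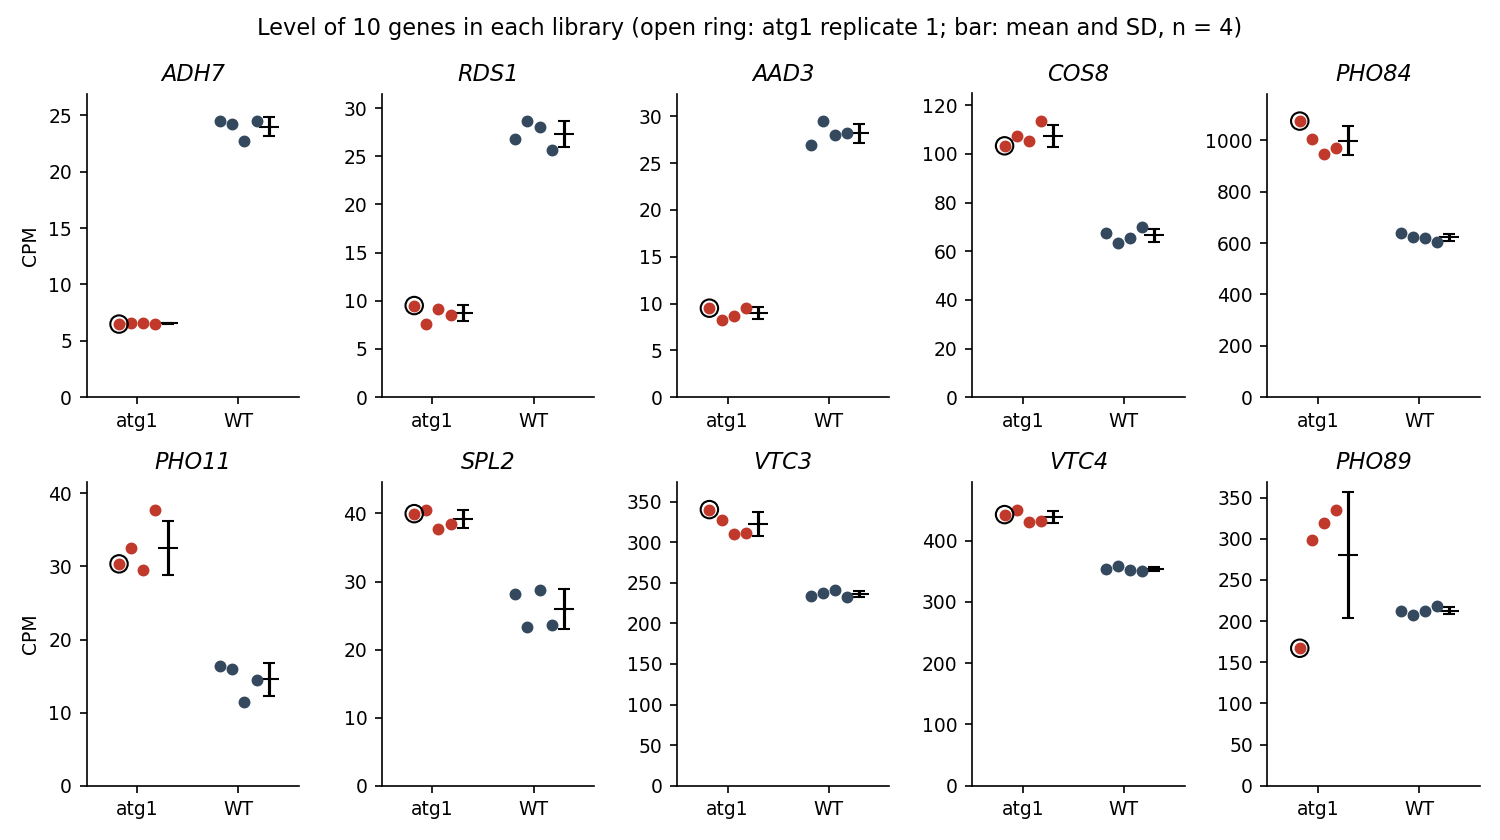
CPM of 10 genes in each library, atg1 in red at the left and WT in dark blue at the right of each panel, with axes from 0; points are libraries, the ring marks atg1 replicate 1, and the bar gives the mean and SD (n = 4). ADH7, RDS1 and AAD3 are low in atg1, COS8 and 5 phosphate genes are high with no overlap, and in PHO89 the ringed library lies at 167 CPM, below all WT libraries.

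The stretches upstream of the called phosphate genes are shown because Pho4 is known to bind the letters CACGTG, and this core stood before each of the 7. The windows are 60 bases of the strand that runs toward the gene, read from RefSeq's assembly R64, with the CACGTG nearest to the start codon that lies at least 150 bases away in capitals.
PHO84, minus strand, chrXIII:26182-26241, core 408 bases before the start codon: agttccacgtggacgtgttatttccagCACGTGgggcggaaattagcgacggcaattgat
PHO11, plus strand, chrI:225150-225209, core 277 bases before: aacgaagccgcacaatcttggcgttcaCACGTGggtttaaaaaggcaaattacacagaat
VTC3, minus strand, chrXVI:517297-517356, core 305 bases before: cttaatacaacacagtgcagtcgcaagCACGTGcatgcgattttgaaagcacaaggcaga
SPL2, minus strand, chrVIII:375429-375488, core 355 bases before: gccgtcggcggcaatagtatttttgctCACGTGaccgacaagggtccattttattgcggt
VTC1, plus strand, chrV:302622-302681, core 151 bases before: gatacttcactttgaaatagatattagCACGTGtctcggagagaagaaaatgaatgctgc
PHO8, minus strand, chrIV:1420752-1420811, core 528 bases before: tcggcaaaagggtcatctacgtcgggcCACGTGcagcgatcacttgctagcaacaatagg
VTC4 has 2 cores, both closer than 150 bases, and no window is shown for it.

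CACGTG, which reads the same on both strands, was searched in the 600 bases before the start codon of each gene. It was present for 418 of 5713 genes tested (7.3%), for 17 of the 25 genes of the uptake and polyphosphate lists (68.0%) and for 8 of the 11 genes called higher (72.7%). Of these 8 genes, 7 are members of those lists. Of the 58 genes called lower, 2 held CACGTG (3.4%). The related core CACGTT, on either strand, was present for 18.8% of all genes and for 48.0% of the 25 phosphate genes. Of the 418 genes with CACGTG, 8 were thus called higher and 2 lower, and their median log2 fold change was 0.04. A match describes these letters only, and the lists hold known Pho4 targets. Neither the share in the lists nor the share in the genes called higher is therefore independent evidence.

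The 4 rises outside the phosphate lists were COS8, MSW1, YDR541C and SDD1. COS8 (YHL048W, 6.40 kb from an end of chromosome VIII), of a subtelomeric family that acts in sorting membrane proteins to the vacuole, had 103, 107, 105 and 113 CPM in atg1 and 67.4, 63.3, 65.4 and 69.9 CPM in WT. The rise of COS8 was 0.69 ± 0.05 in log2 (edgeR adjusted p = 1.01e-04), and the strains did not overlap. The other 8 measured COS genes ranged from 0.01 (COS10) to 0.15 (COS2) with none called, and since the copies are alike, reads can be split among them. In the 4 atg41 libraries, scaled with all 12 libraries together, COS8 was at 128 to 136 CPM. YHL049C, the next gene toward the end of chromosome VIII, was looked up after its values were seen: it had 14.4, 15.4, 12.9 and 11.6 CPM in atg1 and 8.74, 10.2, 5.76 and 8.16 CPM in WT. All its atg1 libraries lay above its WT libraries, and the log2 fold change was 0.72 ± 0.16 with no call (edgeR adjusted p = 0.062). MSW1, the mitochondrial tryptophanyl-tRNA synthetase, rose by 0.25 ± 0.05 (edgeR adjusted p = 0.0483), and YDR541C by 0.27 ± 0.05 (edgeR adjusted p = 0.0341). SDD1 was below the level set for naming genes and was singled out after its values were seen: it had 5.94, 6.61, 6.08 and 6.48 CPM in atg1 and 2.21, 2.45, 3.52 and 2.17 CPM in WT. The log2 fold change of SDD1 was 1.28 ± 0.17 (edgeR adjusted p = 0.0114), and its atg1 libraries all lay above its WT libraries.

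The remaining 54 falls were spread over the genome, and most were moderate, with a median log2 fold change of -0.54. The largest were RRP14, a nucleolar protein of ribosome synthesis, and EAF7, which belongs to the histone acetyltransferase NuA4. RRP14 had 22.6, 16.2, 26.5 and 12.2 CPM in atg1 and 44.0, 49.7, 53.8 and 41.5 CPM in WT, and it fell by 1.29 ± 0.21 in log2 (edgeR adjusted p = 0.0341). EAF7 had 24.2, 14.6, 22.5 and 12.4 CPM in atg1 and 41.9, 41.4, 52.3 and 40.1 CPM in WT, and it fell by 1.26 ± 0.20 (edgeR adjusted p = 0.0341). ZIP1, a protein of the synaptonemal complex of meiosis, had 27.3, 28.6, 42.9 and 25.8 CPM in atg1 and 55.0, 61.7, 72.0 and 60.5 CPM in WT, and it fell by 1.00 ± 0.16 (edgeR adjusted p = 0.033). In these genes the strains did not overlap, and the libraries within each strain shared an order: atg1 replicate 4 was the lowest and WT replicate 3 the highest in all 3. Over the 54 genes, atg1 replicate 2 or 4 was the lowest atg1 library in 48, and WT replicate 3 was the highest WT library in 45.

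The library order just given did not hold in all of the other named falls: in SPO12 and BTN2 atg1 replicate 2 was the lowest and WT replicate 1 the highest. TMA23, a nucleolar protein, fell by 0.97 ± 0.19, IMH1, a Golgi tethering protein, by 0.94 ± 0.17, and TOA1, the large subunit of the general factor TFIIA, by 0.93 ± 0.13. LSO2, which binds ribosomes, fell by 0.90 ± 0.15, and BUG1, a Golgi protein, by 0.90 ± 0.15. PRP3, a splicing factor of the U4/U6 particle, fell by 0.85 ± 0.12, UPF3 of nonsense-mediated mRNA decay by 0.84 ± 0.14, and TAF7 of the general factor TFIID by 0.82 ± 0.13. YJL113W, a Ty4 retrotransposon gene whose reads can be shared with its copies, fell by 0.86 ± 0.17. SPO12, a regulator of mitotic exit, fell by 0.48 ± 0.08 as the single call among 22 genes expressed at G2/M, whose median was -0.10. BTN2, which collects misfolded proteins, fell by 0.57 ± 0.10 as the single call among 25 chaperones and other Hsf1 targets, whose median was 0.03. RRP14 was the single call among 110 genes of ribosome biogenesis, whose median was -0.06, and ZIP1 the single call among 26 genes of meiosis, whose median was -0.11. The adjusted p of the genes in this paragraph ran from 0.0114 (PRP3) to 0.0484 (YJL113W) by edgeR, and over all genes 0.942% were called lower.

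The falls moved with base composition. Across 5713 genes with a coding sequence in R64, the share of A in the coding strand and the log2 fold change had a Spearman correlation of -0.58, a description over genes that share the same 8 libraries. With genes split into 10 equal groups by A share, the group with the least A (median 25.8%) had a median log2 fold change of 0.11, and the group with the most A (median 38.4%) had -0.27. The 58 genes called lower had a median A share of 38.5%, with 54 of them above the 32.7% of all genes, and the 11 called higher had 31.4%. ADH7, RDS1 and AAD3 were not part of this: their A shares were 27.8%, 32.0% and 30.2%. The drift was also present between libraries of the same strain. The Spearman correlation of A share with a library's deviation from the mean of all 8 was -0.21, -0.42, 0.01 and -0.51 in the atg1 libraries and 0.14, 0.51, 0.64 and 0.26 in the WT libraries. Replicate 3 of atg1 thus lay nearest to WT, and WT replicate 3 furthest from atg1. With each library's trend on A, C and T share and coding length removed, 15 genes were called (0.244% of those tested), 7 higher (0.114%) and 8 lower (0.13%). Rises then made up 46.7% of the calls, against 15.9% with the counts as they stand.

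**Figure D4:**
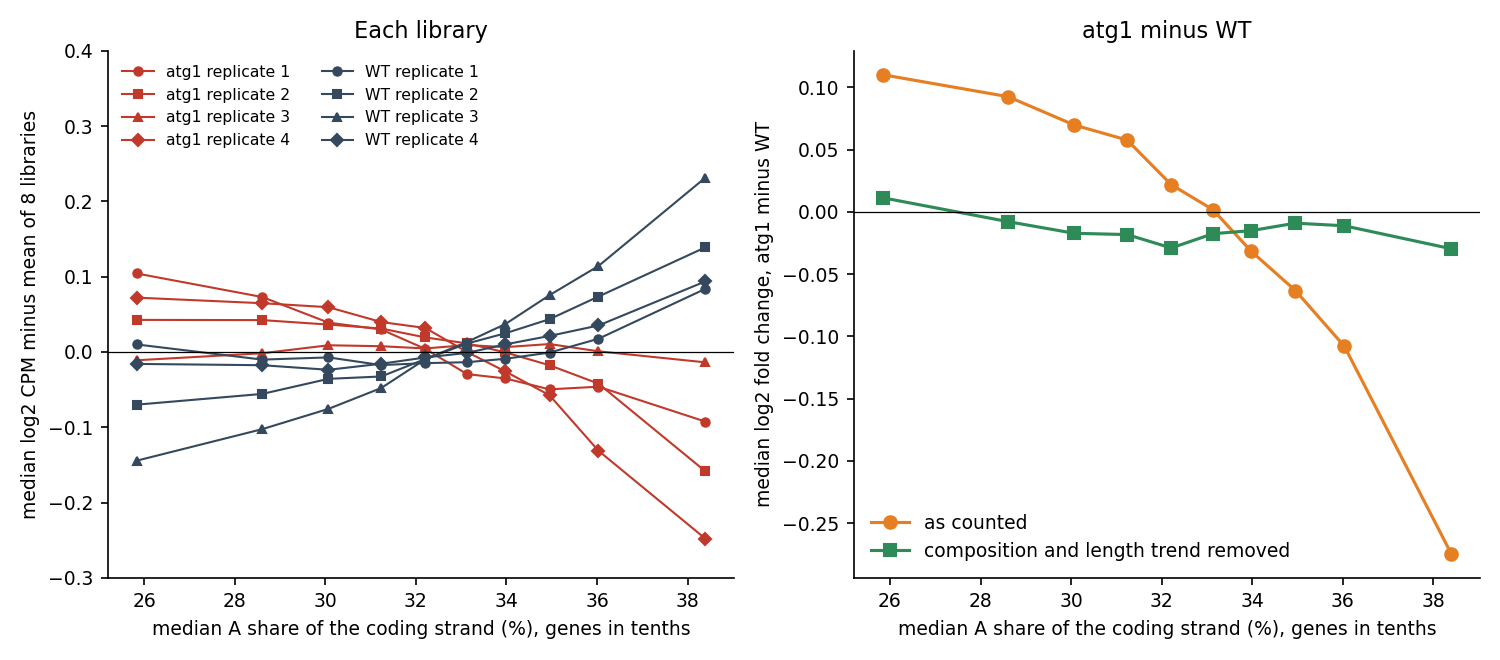
Genes in 10 equal groups by the A share of the coding strand (x axis, median of each group in %). Left: median log2 CPM of each library minus the mean of the 8 libraries, atg1 in red and WT in dark blue; right: median log2 fold change, atg1 minus WT, as counted and after removal of the composition and length trend. The lines of WT rise and those of atg1 replicates 1, 2 and 4 fall toward A-rich genes, and atg1 replicate 3 stays near 0. The fold change runs between 0.11 and -0.27 as counted. After removal it runs between 0.01 and -0.03, which follows from the removal itself.

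Over all called genes the median A share was 38.5% in falls and 31.4% in rises, a narrower contrast than in the genes shown here. Stretches of their coding sequence show what this difference in composition looks like. Each is the 60-base window with the most A in its gene, read from assembly R64 on the coding strand, with A in capitals; the first 2 genes fell and the last 2 rose.
RRP14, minus strand, chrXI:281110-281169: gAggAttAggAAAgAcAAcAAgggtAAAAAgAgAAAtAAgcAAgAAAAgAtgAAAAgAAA
EAF7, plus strand, chrXIV:371139-371198: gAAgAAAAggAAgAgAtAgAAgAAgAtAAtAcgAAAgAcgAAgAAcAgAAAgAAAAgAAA
PHO11, plus strand, chrI:226140-226199: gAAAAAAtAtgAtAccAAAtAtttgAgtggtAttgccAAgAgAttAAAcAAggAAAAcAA
COS8, plus strand, chrVIII:7325-7384: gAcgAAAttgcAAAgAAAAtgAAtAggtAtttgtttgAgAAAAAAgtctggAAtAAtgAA
A made up 60.0% of the window in RRP14 and 63.3% in EAF7, against 50.0% in PHO11 and 46.7% in COS8, and over the whole coding sequence 43.8%, 43.4%, 29.8% and 29.5% in the same order of genes.

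With the trend removed, the genes called higher were SDD1, PHO11, SPL2, COS8, PHO84, VTC3 and VVS1, and those called lower were ATG1, ADH7, RDS1, AAD3, TOA1, IES2, PRP3 and VPS72. PHO84 was at 0.58, PHO11 at 1.04, SPL2 at 0.59, VTC3 at 0.50 and COS8 at 0.59, values near those from the counts as they stand. VTC4, VTC1 and PHO8 were at 0.27, 0.19 and 0.16 and lost their calls. Of the 54 falls outside chromosome III's end and ATG1, 4 kept theirs, and the median of the 54 was -0.29. RRP14 was then at -0.69 (edgeR adjusted p = 0.0583), EAF7 at -0.70 (0.0723) and ZIP1 at -0.48 (0.139). The 4 that remained were TOA1 at -0.62, IES2, of the INO80 chromatin remodeller, at -0.53, PRP3 at -0.49 and VPS72, of the SWR1 remodeller, at -0.38. With atg1 replicate 1 left out as well, 35 of the 54 were called, RRP14 and EAF7 included, among 176 calls (2.85% of those tested, 0.583% higher and 2.27% lower). ADH7, RDS1 and AAD3 were at -1.98, -1.67 and -1.73 with the trend removed.

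Genes of autophagy other than ATG1 were not called. Over the lists for the Atg1 complex and Atg9 cycling, for Atg8 conjugation and for selective autophagy, 0 of 42 genes passed the edgeR test, against 1.12% of all genes, and 35 of the 42 had a log2 fold change under 0. The list medians were -0.13, -0.10 and -0.07, and without atg1 replicate 1 they were -0.04, -0.03 and 0.01. In 34 of the 42 genes atg1 replicate 1 was the lowest of the 8 libraries. ATG8, the protein that coats the autophagosome, had 17.3, 25.3, 31.8 and 27.4 CPM in atg1 and 30.7, 28.9, 31.2 and 30.7 CPM in WT, so the strains overlapped. ATG13, a partner of Atg1, had 76.9, 81.4, 96.1 and 75.0 CPM in atg1 and 93.3, 89.5, 102 and 91.3 CPM in WT. ATG41, a target of Zap1, had 538, 740, 759 and 842 CPM in atg1 and 740, 673, 701 and 779 CPM in WT, and neither gene's strains separated. ATG23, which serves the traffic of Atg9, had 29.1, 36.8, 42.6 and 34.0 CPM in atg1 and 44.9, 45.9, 52.4 and 46.7 CPM in WT. Its strains did not overlap, and its log2 fold change was -0.41 ± 0.11 (edgeR adjusted p = 0.0819). ATG23 was the single call among the 42 when atg1 replicate 1 was left out, against 5.26% of all genes tested in that fit. The largest falls among the 42 were ATG38 at -0.65 ± 0.14 and ATG16 at -0.54 ± 0.12, neither called (edgeR adjusted p = 0.0566 for both). ATG8, ATG13, ATG41 and ATG23 were chosen as examples after their values were seen. The hydrolases of the vacuole, which digest what autophagy delivers, had a median log2 fold change of 0.05 over 12 genes, with the phosphatase gene PHO8 as the single call. The protease gene PEP4, an example chosen after its values were seen, had 1416, 1425, 1391 and 1428 CPM in atg1 and 1374, 1237, 1234 and 1347 CPM in WT, a change of 0.12 ± 0.06 without a call. Of 32 genes under nitrogen catabolite repression and 23 amino acid permease genes none was called, with medians of -0.03 and 0.06. The genes on either side of ATG1 were close to WT: GTS1 was at 0.015 ± 0.049 (edgeR adjusted p = 0.891) and TOS3 at 0.0038 ± 0.081 (edgeR adjusted p = 0.982), and the sign of both turned under some alternatives.

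No gene on the lists of zinc transporters and Zap1 targets was called between the strains, and no library with ample zinc was analysed here to set their levels against. ZRT1, the high-affinity zinc importer, had 15492, 15613, 15202 and 16042 CPM in atg1 and 15449, 14477, 14047 and 15361 CPM in WT, which is 0.07 ± 0.06 in log2 (edgeR adjusted p = 0.498). ZAP1 had 864, 1024, 1063 and 1015 CPM in atg1 and 1020, 1050, 1054 and 1066 CPM in WT, with libraries of both strains mixed. ZRT3, which releases zinc from the vacuole, was at 0.12 ± 0.06 (edgeR adjusted p = 0.328). ADH4, an alcohol dehydrogenase that Zap1 induces, had 1765, 1176, 1103 and 1156 CPM in atg1 and 1089, 1054, 1047 and 1071 CPM in WT, and it was not called (0.29 ± 0.14, edgeR adjusted p = 0.276). All atg1 libraries were above all WT libraries for ADH4, and replicate 1 was far above the rest. Of 14 zinc transporter genes none was called, with a median of 0.08, and of 27 other Zap1 targets none, with a median of 0.01. Over all genes tested 1.12% were called, so lists this short could hold no call at that share alone. Among 21 enzymes that bind zinc, PHO8 was called higher and ADH7 lower, and the median was 0.10. Scaling the libraries to equal totals moved the median of all genes to -0.09 and ZRT1 to -0.014, and with the composition trend removed ZRT1 was at -0.020 and ZRT3 at -0.0067.

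Replicate 1 of atg1 differed from the other 3 in whole groups of genes. The level of a list in a library is the median over its genes of log2 CPM minus the WT mean. Genes for ribosomal proteins were at 0.89 in atg1 replicate 1 and at 0.21, -0.04 and -0.01 in replicates 2 to 4, against -0.08 to 0.06 in WT. Of these 130 genes 129 had a log2 fold change above 0, with a median of 0.31, and none was called. Without replicate 1 their median was 0.05. RPS22A, of the small ribosomal subunit, shows the pattern with 579, 292, 233 and 229 CPM in atg1 and 241, 242, 241 and 224 CPM in WT. Stress genes under Msn2 and Msn4 went the other way, at -0.49 in atg1 replicate 1, at -0.05, 0.05 and 0.10 in the other atg1 libraries, and at -0.06 to 0.06 in WT. HXT5, a hexose transporter of slow-growing cells, had 57.0, 213, 306 and 318 CPM in atg1 and 297, 262, 269 and 325 CPM in WT, and HSP26, a small heat shock protein, had 264, 622, 754 and 572 CPM in atg1 and 791, 668, 869 and 808 CPM in WT. RPS22A, HXT5 and HSP26 were chosen as examples after their values were seen, and none was called. Glycolysis genes were at 0.36 in atg1 replicate 1, 0.08 to 0.16 in the other atg1 libraries and -0.07 to 0.09 in WT, with a median fold change of 0.17 and no call among 21.

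The list level of phosphate uptake genes did not follow that library: it was 0.27, 0.26, 0.28 and 0.22 in the atg1 libraries and -0.07 to 0.05 in WT. Single members could differ, as PHO89 did. What set atg1 replicate 1 apart was not tested. Without it, 7 of the 22 G2/M genes were called lower (ASE1, CLB2, CDC5, BUD4, SWI5, SPO12 and MYO1) and 25 of the 110 ribosome biogenesis genes, against 4.57% of all genes tested in that fit. Genes of ribosome biogenesis have a median A share of 35.8% and G2/M genes 35.1%, and with the composition trend removed as well their median log2 fold changes were -0.04 and -0.07, against -0.12 and -0.11 with the counts as they stand.

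**Figure D5:**
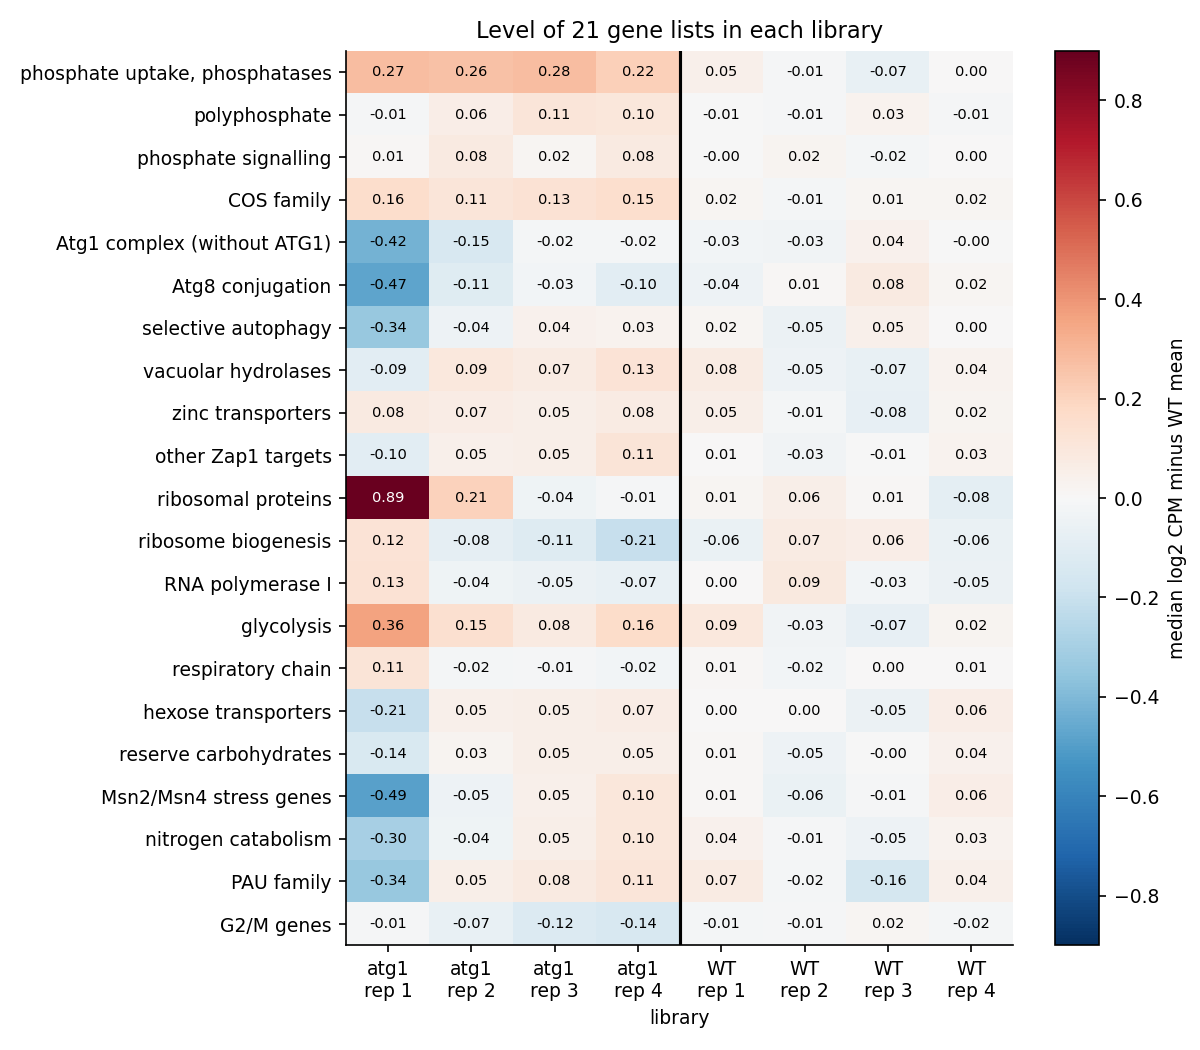
Level of 21 gene lists (rows) in each library (columns, atg1 left of the black line and WT right of it), as the median over the genes of a list of log2 CPM minus the WT mean; red is higher and blue lower. The column of atg1 replicate 1 holds the strongest colours, 0.89 for ribosomal proteins and -0.49 for Msn2 and Msn4 stress genes, and phosphate uptake is at 0.22 to 0.28 in all 4 atg1 libraries.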

How the data were processed

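Poly-A RNA of the 8 libraries was made into TruSeq libraries that do not mark strand and sequenced in single 100-base reads, per the labels' protocols and the design text, which leaves reads of overlapping and antisense genes mixed. The authors deposited gene-level expected counts (18.4% of values not whole, from which the unit was read) and TPM. BWA, STAR, RSEM and edgeR are named, without roles, in the submitters' processing notes; no tool version, genome build or annotation is given there. A further 12 columns of per-sample values belong to no sample analysed here and were left aside. The authors' comparison tables were not used.

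Expected counts were rounded to whole numbers, filtered with filterByExpr (minimum count 10, minimum total 15) and scaled with TMM. Strain was the only factor in edgeR 4.0.16 (R 4.3.3), with robust fits, two-sided quasi-likelihood F tests and Benjamini-Hochberg adjustment over 6157 genes at a threshold of 0.05. The biological coefficient of variation was 9.98%. The SE is the size of the log2 fold change divided by the square root of F. On simulated data, edgeR recovered 84% of log2 changes of 0.5 and 99% of changes of 1 in atg1 against WT (6147 genes), with 4.2% false calls. The simulation gave every gene the same spread and held no outlying library and no composition trend. These rates therefore need not hold for the real libraries, which have both. Alternatives were DESeq2 1.42.0, limma 3.58.1 (voom with sample weights), other scalings, no filter, all 12 libraries, each library left out, the replicate number as a block, and removal of composition trends. The trend on A, C and T share was added after seeing the data, and the 444 genes without composition values got no correction. Of 6660 features 5986 matched RefSeq's assembly R64, which gave coordinates, neighbours and sequences.

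The genes named are ATG1 and its neighbours, 4 zinc readouts, up to 15 called rises and 15 called falls whose mean log2 CPM reached 3, with no overlap of the strains, called list members (up to 5 a list), and neighbours of clustered changes. The members and the 45 gene lists were chosen with earlier results of these data known. Lists are described by counts and medians, with no test.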

Additional observations from a re-analysis of the deposited data

Results flagged for a closer look

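In 157 groups of 4 libraries, the highest or lowest library was compared with its nearest neighbour over the range of the group. In 9 of the 157 a library stood far off, a share near the 1 group in 20 that chance gives. Of the 9, 6 were atg1 replicate 1. ADH4 was at 1765 CPM there, against 1103 to 1176 CPM in the other atg1 libraries. List levels in atg1 replicate 1 were -0.34 for the PAU family of cell wall proteins, 0.13 for RNA polymerase I, -0.14 for reserve carbohydrates, 0.11 for the respiratory chain and -0.21 for hexose transporters. ZIP1 was at 42.9 CPM in atg1 replicate 3, above the other atg1 libraries. In WT replicate 3, EAF7 was at 52.3 CPM, above the other WT libraries, and ADH7 at 22.8 CPM, below them.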

How the results depend on the processing

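The 69 calls (11 higher, 58 lower) became 54 with DESeq2 size factors, 49 without the filter and 62 with the GC and length trend removed. They were 269 (8 higher, 261 lower) with libraries scaled to equal totals, 309 (48 and 261) with DESeq2, 623 (125 and 498) with limma voom and sample weights, and 231 (24 and 207) with all 12 libraries. The labels do not say whether the replicate numbers pair the samples. Deviations of same-numbered libraries correlated with r of -0.07, -0.16, 0.17 and 0.14. Libraries with different numbers were not compared in this way, so these values cannot decide whether the numbers mark pairs. With the replicate block there were 153 calls (18 and 135), 106 with the block and the GC trend removed (13 and 93), and 9 with the block and the base composition trend removed (4 and 5). Without atg1 replicate 1, removal of the GC trend gave 327 (58 and 269) and of the base composition trend 176 (36 and 140); base composition removal in all 8 libraries gave 15 (7 and 8). Leaving out 1 library each gave 7 to 325 calls, 3 to 43 higher and 4 to 282 lower. The cause of these moves was not tested. Of the genes named, those that changed sign had no call in any setting. ZRT1 was at -0.014 (equal totals), -0.020 (base composition, with and without the block) and -0.0086 (base composition without atg1 replicate 1). ZRT3 was at -0.0067, -0.0065 and -0.0095 in the same 3 base composition settings, and ADH4 at -0.035 in the one without atg1 replicate 1. GTS1 was at -0.069 (equal totals), -0.087 and -0.088 (GC, without and with the block), -0.060 (GC without atg1 replicate 1), -0.064 and -0.065 (base composition, without and with the block), -0.034 (base composition without atg1 replicate 1) and -0.012 to 0.049 when each library was left out. TOS3 was at -0.078 (equal totals), -0.00042 (12 libraries), -0.0012 (block), -0.014 and -0.019 (GC, without and with the block), -0.066 and -0.071 (base composition, without and with the block), -0.0071 (base composition without atg1 replicate 1), and -0.039 to 0.077 when each library was left out. Of 945 list medians over the alternatives, 812 moved by less than the spread between libraries and 133 by more. At 9658658 to 11247182 counts a library, genes below the filter, PAU3 among them, were not tested.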
